A study of Mus musculus with 6 samples.

Results

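The CTCF peaks described here lie in a window of 650 kb on mouse chromosome 1, from 171.2 to 171.85 Mb in the mm39 build, taken as the Itln1 to Slamf1 part of the SLAM receptor cluster. The window was chosen on measured values, because peaks of the wild-type lists covered a part of it far more than those of the knockout lists. Differences between the genotypes inside it are therefore given as a description, with no test. All peaks overlapping the window by at least 1 bp were taken, 123 of the 172581 peaks in 6 lists, and they merged into 43 of 94951 regions.

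The study profiled CTCF in regulatory T cells of the mouse thymus by CUT&RUN, which releases and sequences the DNA around an antibody-bound protein. The groups are cells with the genotype Cgas Knockout (Cgas_KO, 3 libraries), without the enzyme cGAS that senses DNA in the cytosol, and cells with the genotype WT (3 libraries). Each library has its own peak list. The sources used here do not give the strain, age or sex of the mice, any reporter allele, the kind of knockout allele, or whether animals were pooled. They do not tie replicates to separate animals, and the spread between libraries may be technical. By the RefSeq gene table, Cgas itself is on chromosome 9.

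CTCF is a zinc-finger protein that binds a long DNA motif and stops the ring complex cohesin, and pairs of bound sites mark the bases of chromosome loops. The SLAM family receptors are immunoglobulin-like cell surface proteins of lymphocytes and other blood cells. Most of them bind a copy of themselves on the neighbouring cell and signal through the small adaptor SAP. Ly9 (CD229), Slamf7 (CRACC) and Slamf1 (CD150) are self-ligands, whichever adaptor each uses, while Cd244a encodes 2B4, whose ligand is the product of Cd48. Itln1 encodes intelectin, a lectin that binds sugars on microbes and is known from the gut lining. Inbred mouse strains carry different haplotypes of this cluster, which differ in the number of genes related to Cd244a, and the number of intelectin genes differs between strains as well.

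The RefSeq table of GRCm38.p6 places the 6 genes in the order Itln1, Cd244a, Ly9, Slamf7, Cd48 and Slamf1. Alyref2 and F11r come before them, and Cd84, another SLAM receptor, follows. That table is of another build than the peaks, so it was used for names and order alone. Which peak lies at which of these genes was not analysed here, and no sequence under a peak was read. Promoters from RefSeq, also of GRCm38.p6, were matched by symbol for 5 of the 6 genes, all but Ly9. The 250 bases before the start of Cd244a (plus strand) and of Itln1 (minus strand) are shown because strains differ in copies of these 2 gene families, with CCCTC, the letters that gave CTCF its name, and its reverse complement in capitals.

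Cd244a: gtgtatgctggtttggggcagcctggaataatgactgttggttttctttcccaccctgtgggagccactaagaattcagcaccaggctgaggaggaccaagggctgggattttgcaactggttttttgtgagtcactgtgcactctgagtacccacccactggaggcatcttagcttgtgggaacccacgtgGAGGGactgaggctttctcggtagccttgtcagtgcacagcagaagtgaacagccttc
Itln1: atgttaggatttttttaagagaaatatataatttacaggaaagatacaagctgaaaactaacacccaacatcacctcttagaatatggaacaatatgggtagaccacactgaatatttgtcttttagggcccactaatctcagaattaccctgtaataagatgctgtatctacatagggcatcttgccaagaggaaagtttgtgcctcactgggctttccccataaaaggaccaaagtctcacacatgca

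Over the full promoter windows, which add 50 bases after the start, CCCTC on either strand was found for Cd244a, Cd48 and Slamf7, that is 3 of 5, and in 66.0% of all 32851 promoters. The longer form CCANNAGNNGGC, closer to the full CTCF motif, was in 0 of the 5 and in 2.43% of all promoters, on either strand. These matches describe letters in a window, and no peak was placed against them.

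Peaks were about as many in both genotypes, but their length was not alike. The Cgas_KO lists held 21, 19 and 22 peaks in the window and the WT lists 17, 24 and 20, which gives 20.7 ± 1.53 in Cgas_KO and 20.3 ± 3.51 in WT (SD, n = 3 each). The sign of this small difference depends on the libraries and on list length. Peaks covered 11.2%, 11.0% and 9.15% of the window in Cgas_KO replicates 1 to 3, and 16.4%, 17.8% and 14.6% in WT replicates 1 to 3. Every WT list thus covered more of the window than every Cgas_KO list. The whole lists hold 28052 to 31707 peaks in Cgas_KO and 27128 to 28926 in WT. The read depth behind them is unknown.

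**Figure D1:**
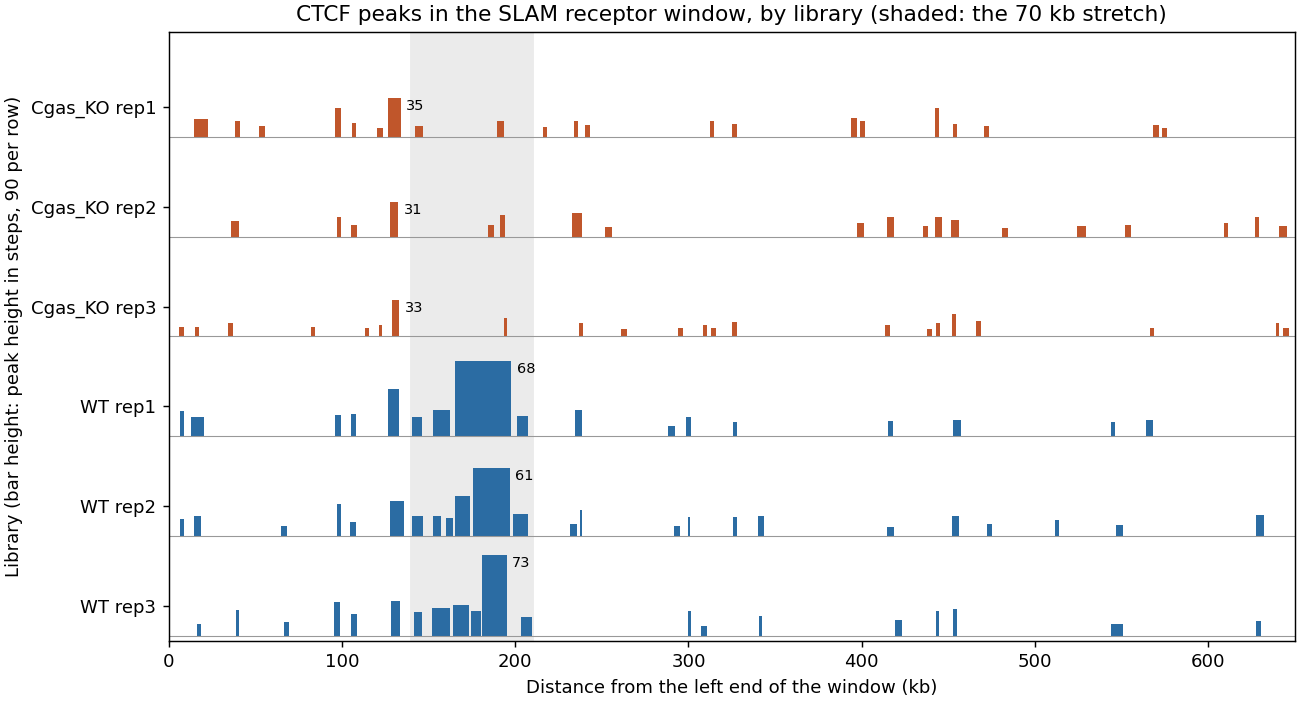
Peaks of each library (rows) along the window, with distance from its left end in kb on the x axis. A bar spans the whole peak and its height is the peak's highest signal in steps, 90 steps to a row, with the tallest peak of each row labelled. The 70 kb stretch is shaded: WT rows fill most of it, Cgas_KO rows hold 1 or 2 peaks there, 1748 to 4589 bp wide.

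The excess in WT lay in 1 stretch of 70 kb, from 171340001 to 171410000. It is the longest run of 10 kb bins in which every WT list covered more than every Cgas_KO list, 7 bins, and was drawn on that difference. Peaks covered 12.1%, 9.04% and 2.50% of it in the Cgas_KO lists, against 79.6%, 77.6% and 72.3% in the WT lists. The groups lie far apart, at 7.90% ± 4.93 in Cgas_KO and 76.5% ± 3.80 in WT (SD, n = 3 each). Of all the length under peaks in the window, the stretch held 7.82% ± 4.47 in Cgas_KO and 50.8% ± 3.48 in WT (SD, n = 3 each).

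Over the window outside the stretch the lists lay closer together, with 11.1%, 11.3% and 9.95% covered in the Cgas_KO lists and 8.74%, 10.6% and 7.67% in the WT lists. These ranges overlap: WT replicate 2 lies above Cgas_KO replicate 3. The means were 10.8% ± 0.714 in Cgas_KO and 9.01% ± 1.5 in WT (SD, n = 3 each), a difference of 1.75 percentage points that fell to 1.08 without WT replicate 3 and to 0.688 in lists cut to the length of the shortest. The difference in means lay on the right side, with 9.28% ± 2.04 covered in Cgas_KO and 6.84% ± 1.57 in WT, while the left side was covered at 15.4% ± 5.66 in Cgas_KO and 15.8% ± 1.43 in WT (SD, n = 3 each).

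The edges of the stretch were sharp on the right and less so on the left. The last 10 kb bin before it was covered at 37.5%, 25.2% and 31.2% in the Cgas_KO lists and at 30.3%, 56.4% and 33.1% in the WT lists. The first bin inside was covered at 45.9%, 0% and 0% in Cgas_KO and at 62.3%, 64.7% and 48.2% in WT. The last bin inside was covered at 0% in all Cgas_KO lists and at 65.7%, 75.6% and 63.8% in WT. The next bin to the right held a peak in Cgas_KO replicate 1 alone. From that edge the WT lists had no peak until 171431772.

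**Figure D2:**
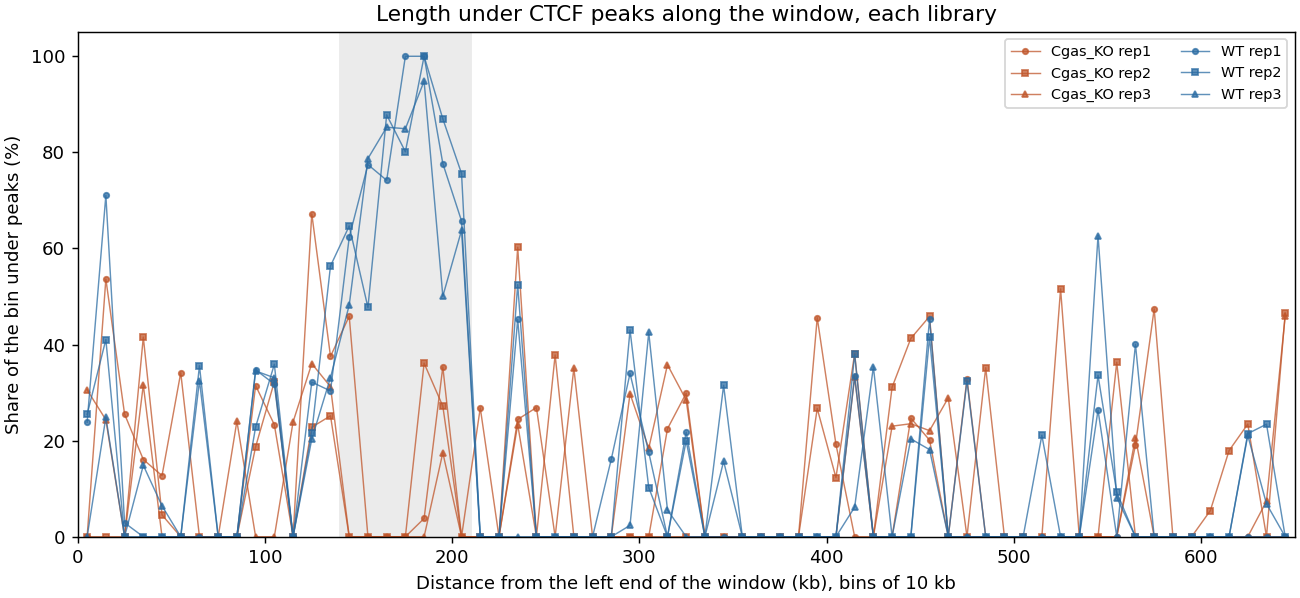
Share of each 10 kb bin under peaks (y axis, %) against distance from the left end of the window (x axis, kb), with 1 line per library. WT lines stand above every Cgas_KO line in the 7 shaded bins of the stretch and cross them over most of the rest.

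Over the whole window, 52 of 65 bins held a peak in some list. In 2 of these 52 every Cgas_KO list covered more than every WT list, where 1.04% of all 10 kb bins with a peak did. In 8 of the 52 every WT list covered more than every Cgas_KO list, where 1.43% of all bins did, and 7 of the 8 are the stretch itself, so this count only describes how it was drawn. Neighbouring bins share peaks and are not independent.

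Inside the stretch the Cgas_KO lists called 5 peaks and the WT lists 16. Cgas_KO replicate 1 had peaks of 10 and 14 steps, replicate 2 of 11 and 20 steps, and replicate 3 a single peak of 17 steps. A step is the smallest unit of which every peak's highest signal is a whole multiple in its list, and the median peak of a list was 11 to 14 steps high. The WT peaks were 16 to 73 steps high, with a median of 21.5 steps. The sources used here do not define the step. One step was worth 0.118 ± 0.00196 of the deposited signal units in Cgas_KO and 0.199 ± 0.0119 in WT (SD, n = 3 each), with no overlap, so a height ratio between genotypes depends on the unit. Heights are therefore also ranked, and set against a neighbour, within their own list below.

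The WT peaks of the stretch were broad. They were 3844 to 32764 bp wide with a median of 7613 bp, while the 5 Cgas_KO peaks were 1748 to 4589 bp wide. The broadest, in WT replicate 1, ranked 31 by width and 46 by total signal among the 27356 peaks of its list. Signal averaged over the length of the peaks was 5.26 ± 0.734 steps in Cgas_KO and 9.00 ± 0.413 in WT (SD, n = 3 each). In the rest of the window it was 5.38 ± 0.605 steps in Cgas_KO and 6.20 ± 0.585 in WT (SD, n = 3 each). The median peak of a whole list averaged 4.86 ± 0.423 steps in Cgas_KO and 4.94 ± 0.151 in WT (SD, n = 3 each). That is a median over single peaks, while the values of the stretch pool its peaks by length, so the 2 measures differ. In the stretch the WT lists stood at 9.03, 8.57 and 9.40 steps, against 5.09, 4.78 and 4.94 for their median peaks. The Cgas_KO lists were mixed, at 4.49, 5.34 and 5.95 steps against 5.14, 5.07 and 4.37.

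WT peaks of all 3 lists overlapped over 42.7 kb of the stretch, and Cgas_KO peaks of all 3 lists over 0.237 kb. The WT lists shared 1 longer gap, from 171346647 to 171352128 (5.48 kb), which splits off a left-hand block. The longest gap shared by the Cgas_KO lists ran over 37.6 kb, from 171346726 to 171384365. In 4 of the 7 bins of the stretch no Cgas_KO list had any peak.

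The peaks of the stretch merged into 3 regions, called in different numbers of Cgas_KO lists. The left one, 171340133 to 171346725, was called in Cgas_KO replicate 1 at 10 steps and in the WT lists at 17, 18 and 21 steps. The middle one, 171352129 to 171397767, was called in all 6 lists, at 14, 20 and 17 steps in Cgas_KO and 68, 61 and 73 steps in WT. The right one, 171398418 to 171409877, was called in no Cgas_KO list and in the WT lists at 18, 20 and 17 steps. Heights of the left and right regions were alike in the WT lists. The tallest WT peak of the middle region stood over 3 times as high in each list, while its other WT peaks were 16 to 36 steps high.

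The tallest WT signal of the middle region fell in nearly the same place in each list. The interval of highest signal ran from 171394761 to 171394798 in WT replicate 1, from 171392156 to 171394819 in replicate 2 and from 171394433 to 171394512 in replicate 3. In Cgas_KO replicate 3 it ran from 171394649 to 171394652, within that span. In Cgas_KO replicate 1 it ran from 171391975 to 171392290, which overlaps the left end of the interval in WT replicate 2, and in Cgas_KO replicate 2 from 171391844 to 171391861, left of all WT intervals. WT replicates 2 and 3 shared another summit, at 171368406 to 171368415 (36 steps) and 171368501 to 171368502 (28 steps), where no Cgas_KO list had a peak.

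Within their lists these summits ranked high in WT and less so in Cgas_KO. The tallest peak of the stretch was at percentile 53.4, 81.5 and 86.5 of height in the Cgas_KO lists and at 97.5, 97.7 and 97.9 in the WT lists. Mean heights were 17.0 ± 3.0 steps in Cgas_KO and 67.3 ± 6.03 steps in WT (SD, n = 3 each), a ratio of 0.252. In the deposited signal units they were 2.01 ± 0.354 in Cgas_KO and 13.4 ± 0.753 in WT (SD, n = 3 each), a ratio of 0.150. The difference in mean percentile, Cgas_KO minus WT, was -23.9 points, and 131 of the 4896 regions called in all 6 lists had a lower one.

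The tallest peak beside the stretch overlapped between the genotypes in steps, while in the deposited units every Cgas_KO list was lower than every WT list. This region, 171326738 to 171335636, ends 4.50 kb before the left region begins and was called in all 6 lists, at 35, 31 and 33 steps in Cgas_KO and 43, 32 and 31 steps in WT. The mean was 33.0 ± 2.0 steps in Cgas_KO and 35.3 ± 6.66 in WT (SD, n = 3 each), a ratio of 0.934. In the deposited signal units it was 3.90 ± 0.239 in Cgas_KO and 7.0 ± 1.07 in WT (SD, n = 3 each), a ratio of 0.557. All 6 summits lay within 976 bp. Set against this neighbour in the same list, the tallest peak of the stretch was 0.400, 0.645 and 0.515 times as high in Cgas_KO and 1.58, 1.91 and 2.35 times as high in WT. The ratio needs no scaling between lists, and its groups do not overlap. The stretch was drawn on an excess in WT, and the neighbour's height percentile was higher in every Cgas_KO list. This separation is therefore a description only.

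**Figure D3:**
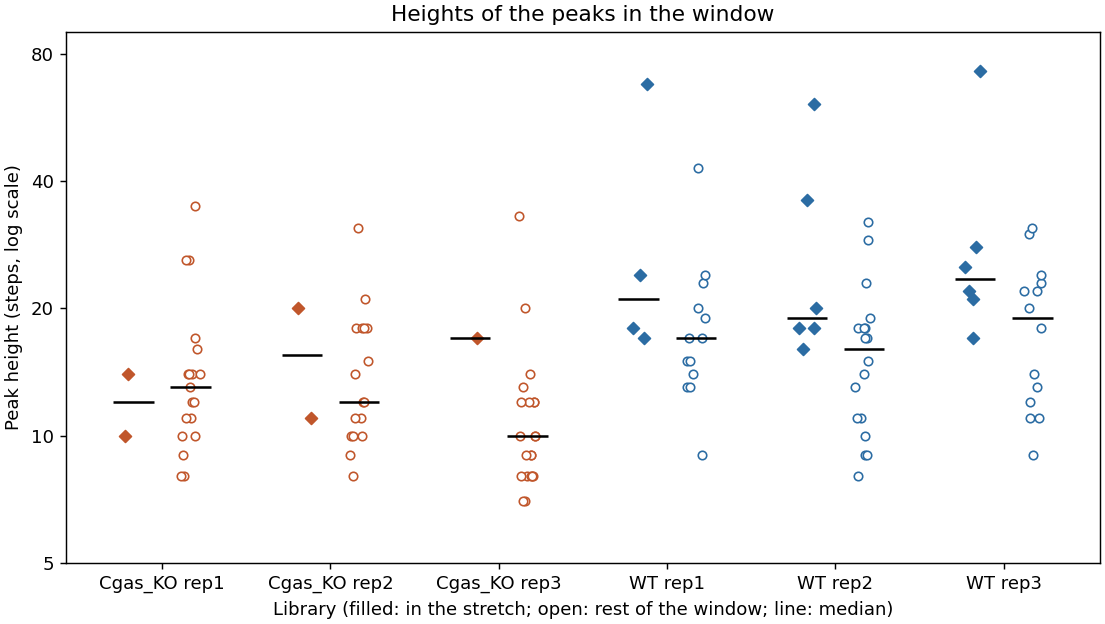
Height in steps (y axis, log scale) of every peak in the window, by library, with Cgas_KO libraries on the left and WT libraries on the right. Filled points lie in the stretch, open points in the rest of the window, and lines are medians. The tallest points of the WT libraries, 61 to 73 steps, lie in the stretch, those of the Cgas_KO libraries, 31 to 35 steps, beside it.

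The third region called in all 6 lists, 171651662 to 171657171, stood at 12, 15 and 20 steps in Cgas_KO and at 15, 18 and 24 steps in WT, which overlap. In height percentile, 1 of the 3 regions, the neighbour at 171326738, was higher in every Cgas_KO list, where 9.40% of all regions in 6 lists were. The one in the stretch was higher in every WT list, where 6.76% were, and since the window was chosen on this contrast nothing is read from these counts. The percentiles of the neighbour were 95.9, 94.3 and 97.8 in Cgas_KO and 94.2, 91.7 and 88.9 in WT, nearly touching.

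Of the 43 regions, 22 were called in more Cgas_KO than WT lists, 14 in more WT lists and 7 in as many of both. Over all 94951 regions these counts were 43104, 38066 and 13781, so the larger Cgas_KO count is not particular to the window. No region was called in all Cgas_KO lists and no WT list, where 0.330% of all regions were. There were 3 regions called in all WT lists and no Cgas_KO list, 6.98% of the 43, where 0.377% of all regions were. The first is the right region of the stretch. The second, 171498554 to 171501755, was 17, 17 and 22 steps high in WT with summits within 220 bp, and the third, 171743734 to 171750926, was 13, 10 and 11 steps high with summits up to 4087 bp apart. Leaving out a library changes these counts to 0 to 2 for Cgas_KO and 3 to 6 for WT, and lowers the number of lists required at the same time. Since the window was chosen on this contrast, nothing is read from the 3 WT-only regions. Their share also has an unlike base, because regions called in 1 list cannot qualify. Those were 34.9% of the 43 regions and 69.9% of all regions.

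Outside the stretch, several sites were called at the same place in both genotypes. The region from 171295188 to 171299412 was 26 and 18 steps high in Cgas_KO replicates 1 and 2 and 19, 29 and 30 steps in WT, with summits within 201 bp. The region from 171642395 to 171646554 was 26, 18 and 12 steps high in Cgas_KO and 22 steps in WT replicate 3, the only WT list that called it, with summits within 77 bp. The region from 171304507 to 171308593 was 13 and 11 steps high in Cgas_KO replicates 1 and 2 and 20, 13 and 20 steps in WT, with summits within 216 bp. Of the 43 regions, 15 were called in 1 list, 34.9%, against 69.9% of all regions.

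Peaks outside the stretch were on average more in Cgas_KO but ranked lower by height. They numbered 19, 17 and 21 in the Cgas_KO lists and 13, 18 and 14 in the WT lists, ranges that overlap. Their median height percentile was 44.8, 36.2 and 41.0 in Cgas_KO and 63.7, 66.4 and 71.0 in WT, which do not overlap. Ranked by total signal, the groups overlapped: the medians were 34.7, 54.6 and 64.8 in Cgas_KO and 54.1, 58.5 and 52.0 in WT.

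The nearest peaks beyond the window were tall on its left side but not on its right. The first peaks inside the left bound were 9 to 23 steps high and the last ones before it 27 to 60 steps. On the right, the last peaks inside were 8 to 19 steps high and the first ones beyond 7 to 20 steps. The peaks beyond the left bound ended from 171189429 to 171191104, all near it. Those beyond the right bound began from 171854280 to 171974622, so the distances of the 2 sides are unlike.

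The place of the stretch among bins of the genome is a description, since its bounds were drawn on the cover difference ranked here and other places fell on the grid as it came. Of 33197 bins of 70 kb with a peak in any list, laid out so that 1 bin is the stretch, it had the second lowest value of mean cover in Cgas_KO minus that in WT, -68.6 percentage points. The lowest bin was on chromosome 12 from 20280001 to 20350000, with 1.15% in Cgas_KO and 92.4% in WT, and the third, on chromosome 12 as well, was at -49.2. Percentiles 1 and 99 of all bins were -8.84 and 8.21. Differences below -20 were found in 12 bins and above 20 in 1. The WT cover of the stretch was unusual too, with 22 bins at or above it including itself, while 84.3% of bins had a Cgas_KO cover at or below that of the stretch.

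**Figure D4:**
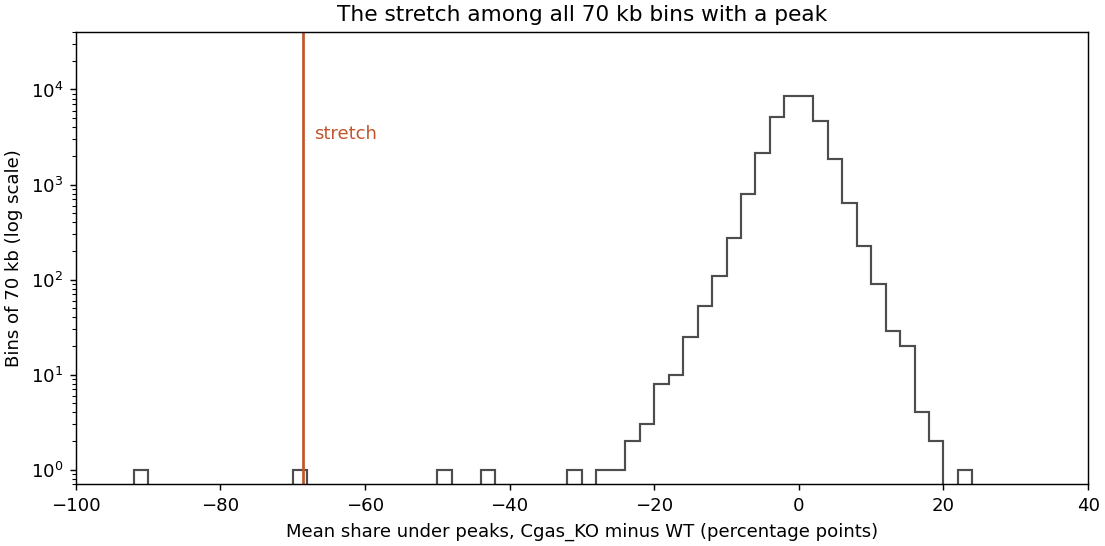
Number of 70 kb bins (y axis, log scale) by mean share under peaks in Cgas_KO minus WT (x axis, percentage points). The stretch, marked by the line at -68.6, lies left of percentiles 1 and 99 at -8.84 and 8.21. Its bounds were drawn on this difference, so its place is no test.

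The measurements that bear on the source of the difference are these. The WT signal was raised over most of 70 kb, in broad peaks, and not at a single site. The neighbouring region at 171326738 gave a Cgas_KO over WT height ratio of 0.934 in steps and 0.557 in deposited units. For the tallest peak of the stretch these ratios were 0.252 and 0.150. That neighbour was higher by height percentile in every Cgas_KO list, unlike the peaks outside the stretch as a set. Their median height percentile averaged 40.7 ± 4.32 in Cgas_KO and 67.0 ± 3.67 in WT (SD, n = 3 each). By total signal it averaged 51.4 ± 15.3 in Cgas_KO and 54.9 ± 3.31 in WT (SD, n = 3 each), which overlap. The Cgas_KO lists still held 5 peaks in the stretch, so reads of these libraries were mapped to part of it. The sources used here do not name the strain of the mice, no input or control library was used, and the lists show no level between peaks. A difference between the mice in haplotype or copy number of this DNA and a difference in CTCF binding cannot be told apart here, nor can weaker binding and binding in fewer cells.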

How the data were processed

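CTCF was measured by CUT&RUN in regulatory T cells of the thymus, and the 3 Cgas_KO and 3 WT libraries, grouped by the genotype label, came as 1 peak list each. The submitters' processing notes name Bowtie2, an aligner, and SEACR 1.3, a peak caller. For every peak the deposited lists hold its total and its highest signal, in units of the authors. The sources used here give neither scaling nor threshold nor control. The notes list mm10 and mm39, and the scaffold names in the lists belong to mm39. Positions count from 1.

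The window, genes and measures were chosen with earlier results of these data known, and no test was made. Regions named are those of the stretch, those in all 6 lists and those in all lists of 1 genotype alone. Others were named after their values were seen. Peaks on chromosomes 1 to 19, X and Y were merged at 1 bp overlap. Maximum signal was a whole multiple of the step within 0.01 for 100% of peaks under 200 steps. Percentiles are ranks within a list. Merging, cover and steps were tested on simulated lists. Python 3.11.15, numpy 2.4.6, pandas 2.3.3 and matplotlib 3.10.9 were used. The alternatives were each list cut to the length of the shortest (27128 peaks) or to 50% by total signal, other bins, summit midpoints, merging within 500 bp, 50% coverage, total signal and leaving out each library, and, chosen after seeing the data, heights in deposited units.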

Additional observations from a re-analysis of the deposited data

How the results depend on the processing

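All differences are Cgas_KO minus WT. Cover of the stretch was -68.6 percentage points, and -73.3 in the upper 50% of each list by total signal. It was -77.2 when the stretch was drawn from bins of 5 kb (171350001 to 171395000) and -58.9 from bins of 20 kb (171340001 to 171420000), since the bins change its bounds, and -70.7 to -65.9 with a library left out. Cover of the window was -5.82, -7.79 in that 50%, and -6.65 to -5.04 with a library left out. Outside the stretch it was 1.75, 0.688 in lists cut to the length of the shortest, and 1.08 to 2.56 with a library left out. The difference in peaks per list, 0.333, reversed to -2 in lists cut to the length of the shortest, to -3.67 in the upper 50%, to -0.333 without Cgas_KO replicate 3 and to -1.33 without WT replicate 1, and reached 2.17 without WT replicate 2. The median height percentile differed by -17.9 in the stretch, where Cgas_KO has 1 or 2 peaks a list. It was -46.5 by total signal, -5.98 without Cgas_KO replicate 1 and -32.1 without Cgas_KO replicate 3. Outside it was -26.4, with -20.7 in lists of equal length, -3.50 by total signal and -28.4 to -24.1 with a library left out. Beyond the bounds set by the bins, why values changed with these settings was not tested. Regions in the window numbered 43, and 39 to 44 with a library left out. Those in every list numbered 3, but 1 when a list had to cover 50% of a region, and 3 to 5 with a library left out, 5 without Cgas_KO replicate 3. Cgas_KO-only regions, 0 in all, numbered 0 to 2 with a library left out, with 2 without Cgas_KO replicate 1 or 2 or WT replicate 3 and 1 without Cgas_KO replicate 3. WT-only regions, 3 in all, numbered 2 at 50% coverage and 3 to 6 with a library left out, with 6 without WT replicate 1. In deposited signal units, an alternative chosen after seeing the data, the Cgas_KO over WT height ratio was 0.150 for the tallest peak of the stretch and 0.557 for the one beside it, since the step differs between genotypes. No paired analysis was possible because the results come from no test, the window having been chosen on the contrast itself, and the sources used here do not tie replicate numbers to animals. With the depth unknown, no interval for counting error is given.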
